A study of Mus musculus with 33 samples.

Results

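Runx2, Sp7, Dlx5 and Atf4 are 4 transcription factor genes of the osteoblast lineage. They were looked up by gene symbol, and all 4 were found among the 17982 genes of the deposited count table and among the 13438 of these that had enough counts to be tested. They were described in 3 groups of mouse cells with 3 poly-A RNA libraries each, and in the authors' deposited results for a further group, iOB GFP+. The fibroblast group was grown from tail tips of the mouse strain Col2.3GFP, whose reporter, a fragment of the collagen type I promoter joined to green fluorescent protein (GFP), lights up in cells of the osteoblast lineage. The iOB group (induced osteoblasts) consisted of such fibroblasts exposed for 24 hours to lentivirus carrying transcription factor DNA, split on day 3 and moved to osteogenic medium on day 5. The iOB GFP+ group held the GFP-positive cells sorted from such cultures. The calvarial-OB group was derived from progenitor cells of the skull vault, and its titles mark it as dataset 2, so a difference of data set and a difference of cells cannot be told apart where it is compared. The labels do not name the factor or factors in the virus, and they list no group with virus alone or osteogenic medium alone. A read of a delivered coding sequence and a read of the cell's own gene are counted under the same symbol, so delivered and endogenous transcripts of these factors cannot be told apart here. The labels also do not say whether the 3 libraries of a group came from separate cultures or animals, so the p-values measure the spread between these libraries, which may be technical.

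Runx2, a runt-domain factor, commits mesenchymal cells to the osteoblast fate and binds DNA together with its partner Cbfb. Sp7, also called osterix, is a zinc-finger factor of the Sp family that acts after Runx2 and is needed for bone formation. Dlx5, a homeodomain factor and a target of bone morphogenetic protein signalling, can raise expression of both. Atf4 is a leucine-zipper factor of the integrated stress response, works in late osteoblast differentiation and amino acid supply, and is controlled to a large part through translation of its messenger RNA, which RNA sequencing does not measure.

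The libraries held between 5646299 and 15023771 counts. Together the 4 factors took 0.0281% to 0.0318% of a fibroblast library, 0.0381% to 0.0436% of a calvarial-OB library and 0.148% to 0.180% of an iOB library. Summed over 15 osteoblast marker genes, levels in CPM (counts relative to the library total, scaled by TMM) were 39908 to 42814 in fibroblasts, 60915 to 72091 in iOB and 90598 to 133399 in calvarial-OB. Such a sum is weighted to the most abundant genes. The authors' deposited table for iOB gives a base mean, a normalized count averaged over libraries. It was 284103 for Col1a1, 227050 for Col1a2 and 106991 for Sparc, against 504 for Panx3 and 183 for Ifitm5. Of the 15 markers, 13 were called higher in iOB than in fibroblasts and 14 in calvarial-OB, with none lower. Summed over 14 fibroblast markers, levels in CPM were 34450 to 39053 in fibroblasts, 15330 to 17259 in iOB and 23374 to 24505 in calvarial-OB. Of these 14, 4 were called higher and 9 lower in iOB than in fibroblasts. In calvarial-OB 5 were called higher and 7 lower than in fibroblasts. Summed over 19 macrophage markers, levels in CPM were 46.6 to 94.8 in fibroblasts, 2507 to 4043 in iOB and 4054 to 7497 in calvarial-OB, with all 19 called higher in both groups than in fibroblasts. Over 12 adipocyte markers the ranges were 158 to 176, 408 to 505 and 1397 to 2215 in the same order, and Adipoq, Cfd, Cidec, Lep and Retn had 0 reads in fibroblasts. In iOB 1 of the 12 had 0 reads. Of 11 tested adipocyte markers, 10 were called higher and 1 lower in iOB than in fibroblasts, and 11 were higher in calvarial-OB. Over all tested genes, 22.7% were called higher and 20.6% lower in iOB, and 28.4% higher and 27.4% lower in calvarial-OB. No macrophage marker was at 0 in any group. RNA of macrophage and adipocyte marker genes thus differed between the groups being compared. Which cells it came from was not measured, and its part in the results below was not tested. In these bulk libraries a change in the share of cells of a type and a change in RNA per cell cannot be told apart.

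The Runx2 promoter is shown first because it holds matches to the Runx core motif itself. RefSeq (GRCm38.p6) promoters, stretches of 300 bases around the transcription start, were at hand for 2 of the 4 factors, Runx2 and Atf4. In the Runx2 stretch, at chr17:44814578-44814877 on the minus strand, the core ACCACA, searched on both strands, occurs 3 times, once at 80 bases before the start and at positions 23 and 31 after it. The capitals mark these matches.
Runx2 promoter: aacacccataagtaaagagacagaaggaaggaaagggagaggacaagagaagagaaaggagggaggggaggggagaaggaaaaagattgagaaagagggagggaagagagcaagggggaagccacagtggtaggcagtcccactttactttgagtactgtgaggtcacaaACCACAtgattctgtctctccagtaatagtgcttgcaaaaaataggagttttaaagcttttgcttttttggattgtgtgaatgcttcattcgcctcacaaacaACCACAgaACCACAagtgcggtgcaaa
The motif was present in 16.8% of 32851 RefSeq mouse promoters, and the Atf4 promoter held no match. A promoter of the related gene Runx1 held it at positions 28 and 36 after the start, and a promoter of Runx3 at 134 and 126 bases before it. These are letter matches in a reference sequence, and binding was not measured.

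Runx2 was higher in iOB than in both other groups, and higher in calvarial-OB than in fibroblasts. Its level was 63.2, 77.3 and 70.1 CPM in fibroblast replicates 1 to 3, 116, 111 and 99.0 in calvarial-OB and 433, 407 and 455 in iOB. No libraries of different groups overlapped. In iOB the level was 6.16-fold that of fibroblasts (log2 fold change 2.62 ± 0.11 SE, edgeR's quasi-likelihood test, adjusted p = 4.0e-08) and 3.98-fold that of calvarial-OB (1.99 ± 0.11, adjusted p = 1.4e-07). Between calvarial-OB and fibroblasts the fold was 1.55 (0.63 ± 0.11, adjusted p = 4.2e-04). Its fibroblast level rested on 671, 546 and 845 reads per library.

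Sp7 rose from 3.20, 4.25 and 3.07 CPM in fibroblasts to 722, 518 and 573 in iOB. Calvarial-OB held 42.4, 82.1 and 46.1 CPM, with replicate 2 above the other two. The groups did not overlap, and the coefficient of variation within calvarial-OB was 38.6%. The fitted fold was 175 between iOB and fibroblasts (log2 fold change 7.45 ± 0.31, adjusted p = 3.0e-08 by edgeR), 10.7 between iOB and calvarial-OB (3.41 ± 0.24, adjusted p = 8.1e-07) and 16.4 between calvarial-OB and fibroblasts (4.04 ± 0.28, adjusted p = 3.4e-07). In fibroblasts these values come from 34, 30 and 37 reads.

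Dlx5 had the smallest p of all 13438 tested genes between iOB and fibroblasts. Fibroblasts held 1.04, 1.13 and 0.664 CPM, from 11, 8 and 8 reads. Calvarial-OB held 15.1, 16.5 and 13.5 CPM, and iOB 185, 209.9 and 225. The 3 groups stood apart in every library, and within iOB replicate 1 was lowest for Dlx5 although it was highest for Sp7. The fitted fold was 223 between iOB and fibroblasts (7.80 ± 0.19 on the log2 scale, adjusted p = 4.4e-10 by edgeR), which ranked 43 by size among the tested genes. Dlx5 was 13.8-fold higher in iOB than in calvarial-OB (3.78 ± 0.13, adjusted p = 4.9e-09) and 16.2-fold higher in calvarial-OB than in fibroblasts (4.02 ± 0.20, adjusted p = 3.3e-08).

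Atf4 differed from the other 3 in showing no called change between fibroblasts and either group of osteoblasts. Its level was 214, 261 and 251 CPM in fibroblasts, 230.4, 229.6 and 214 in calvarial-OB and 375, 251 and 255 in iOB. The iOB and fibroblast libraries overlapped, and iOB replicate 1 alone lay well above the rest. The log2 fold change was 0.28 ± 0.15 between iOB and fibroblasts, with a 95% interval of -0.05 to 0.61 (adjusted p = 0.153 by edgeR), and -0.11 ± 0.15 between calvarial-OB and fibroblasts, with an interval of -0.43 to 0.22 (adjusted p = 0.565). Between iOB and calvarial-OB it was 0.39 ± 0.15 (adjusted p = 0.049), a 1.31-fold difference. Without iOB replicate 1 that last value was 0.18 with an adjusted p of 0.266, without calvarial-OB replicate 2 it was 0.41 with an adjusted p of 0.077, and without calvarial-OB replicate 3 it was 0.37 with an adjusted p of 0.093, so the call did not hold in those fits. That iOB library, replicate 1, also had the highest summed osteoblast markers of its group, 72091 CPM, a sum weighted to abundant genes as given above. Its summed macrophage markers were the lowest of its group, 2507 CPM.

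**Figure D1:**
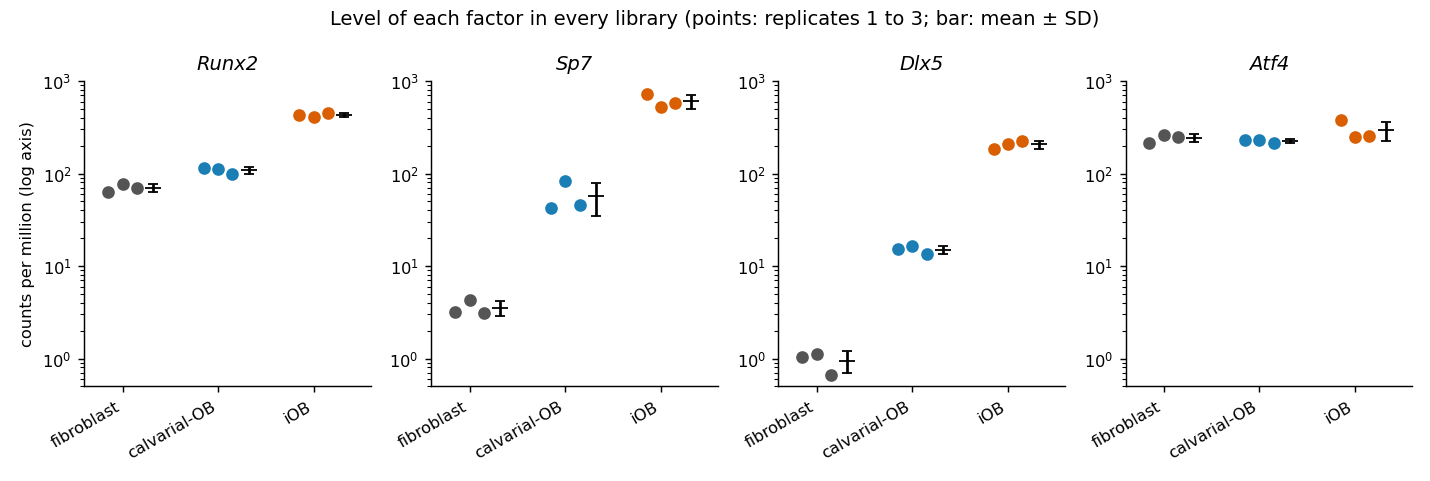
Level in CPM (log axis) of each factor in every library of the 3 groups, with points for replicates 1 to 3 and a bar for the mean ± SD of each group. Runx2, Sp7 and Dlx5 rise in steps from fibroblast through calvarial-OB to iOB without overlap, while the Atf4 points of iOB replicates 2 and 3 lie among the fibroblast points.

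Against the background of all tested genes, 3 of the 4 factors were called higher in iOB than in fibroblasts, where 22.7% of the tested genes were called higher and 20.6% lower. The same 3 were called higher in calvarial-OB than in fibroblasts, with a background of 28.4% higher and 27.4% lower. All 4 were called higher in iOB than in calvarial-OB, with 24.7% higher and 24.1% lower, Atf4 with the adjusted p near the threshold given above. The order of the group means was fibroblast, calvarial-OB, iOB for Runx2, Sp7 and Dlx5, and each step passed the test. For Atf4 the order was calvarial-OB, fibroblast, iOB, and neither neighbouring pair passed it. The shares of all tested genes given here are also the background for the counts of listed genes below.

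The proportions of the factors to each other were compared next. A ratio of counts of 2 genes within a library does not depend on depth or scaling. Gene length cancels between groups only where they express the same transcripts of each gene. A delivered coding sequence can differ in length from the cell's own transcript, so this need not hold for iOB. The Dlx5 to Runx2 ratio was 34.3-fold higher in iOB than in fibroblasts (difference of 5.10 in log2 ratio) and 3.43-fold higher than in calvarial-OB (1.78). Sp7 relative to Runx2 was 27.6-fold higher in iOB than in fibroblasts (4.79) and 2.76-fold higher than in calvarial-OB (1.47). Runx2 relative to Atf4 was 5.15-fold higher in iOB than in fibroblasts (2.36) and 3.10-fold higher than in calvarial-OB (1.63). In each of these comparisons no libraries of the 2 groups overlapped, and the two-sided exact permutation p was 0.1. That is the smallest that 3 against 3 libraries allow, or 0.133 adjusted over the 12 ratio comparisons made.

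The ratio of Dlx5 to Sp7, in contrast, spanned overlapping values in all 3 groups. Its log2 value was -1.86 ± 0.28 (SD, n = 3) in fibroblasts, -1.85 ± 0.42 in calvarial-OB and -1.54 ± 0.37 in iOB. The difference between iOB and fibroblasts was 0.32 (exact permutation p = 0.3), between iOB and calvarial-OB 0.31 (exact p = 0.5) and between calvarial-OB and fibroblasts 0.01 (exact p = 1).

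**Figure D2:**
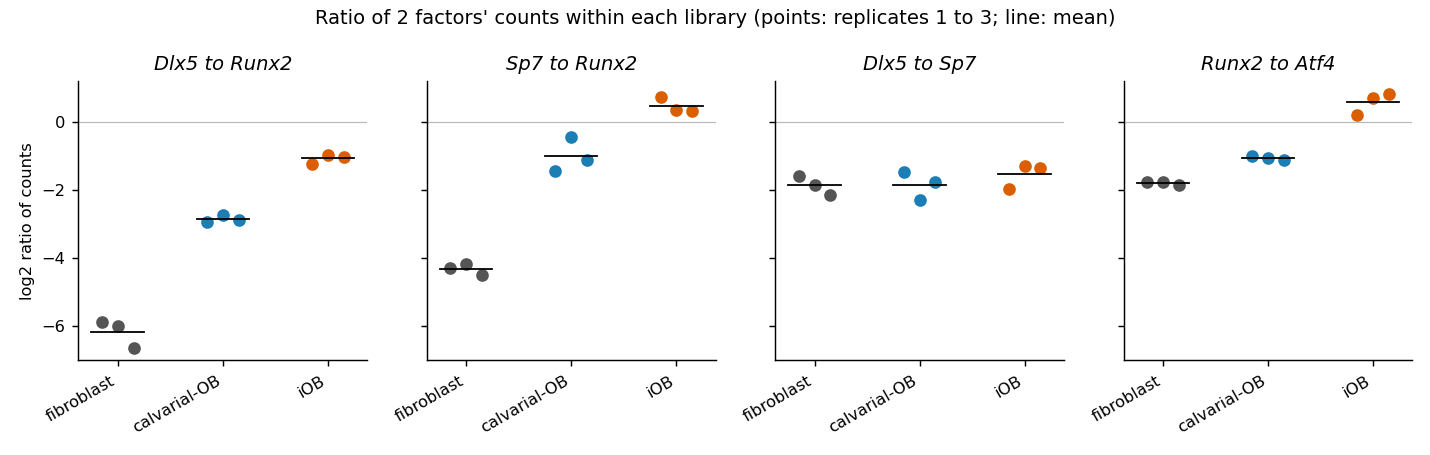
Log2 ratio of the counts of 2 factors within each library, with points for replicates 1 to 3 of each group and a line for the mean. The absolute height includes the lengths of the 2 transcripts, so only differences between groups should be read, and these assume the same transcripts in each group. Dlx5 to Runx2 and Sp7 to Runx2 climb from fibroblast to iOB, while Dlx5 to Sp7 overlaps in all groups.

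In the GFP-positive cells sorted from iOB, all 4 factors were called higher than in fibroblasts in the authors' deposited table, where 23.7% of genes with an adjusted p were called higher and 21.7% lower. The iOB GFP+ libraries are not among the counts, so the table's values stand as the authors gave them, with no spread per library. Sp7 had a log2 fold change of 7.94 ± 0.18 SE in the authors' deposited table, and the largest test statistic of its 17737 genes. Dlx5 stood at 7.17 ± 0.31 (adjusted p = 1.4e-117) and Runx2 at 3.60 ± 0.15 (adjusted p = 9.4e-118) in the authors' deposited table. For Atf4 the authors' deposited table gave 1.08 ± 0.09 (adjusted p = 3.8e-30).

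The authors' deposited table for unsorted iOB, in which 19.9% of genes were called higher and 15% lower, allows these values to be set side by side. There Sp7 stood at 7.28 ± 0.25, Dlx5 at 7.57 ± 0.28, Runx2 at 2.63 ± 0.12 and Atf4 at 0.30 ± 0.16 (adjusted p = 0.136), all from the authors' deposited table. Both tables use fibroblasts as the control, and their fold changes were fitted separately. The difference between sorted and unsorted iOB was not tested. The Col2.3GFP reporter follows a collagen type I promoter, so the sort itself selects on osteoblast-lineage expression.

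**Figure D3:**
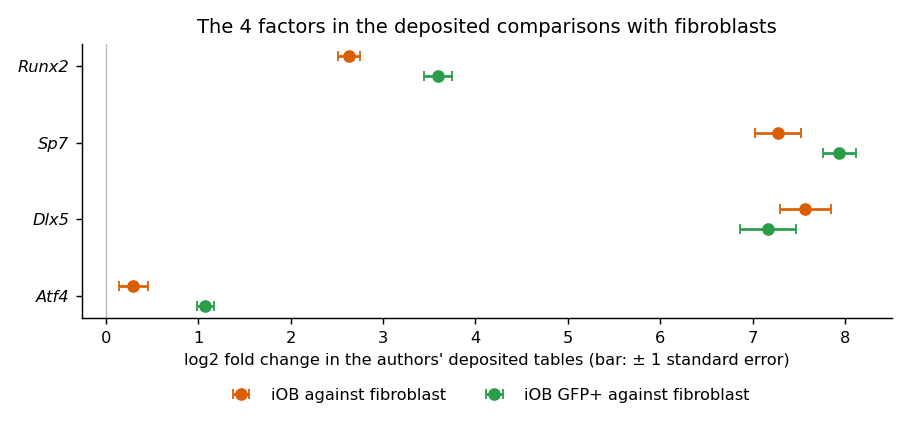
Log2 fold change against fibroblasts (x axis) of the 4 factors (y axis) in the authors' deposited tables for iOB and iOB GFP+, with bars for 1 standard error on each side. Runx2 and Atf4 lie further right in iOB GFP+ (3.60 and 1.08) than in iOB (2.63 and 0.30), and both Sp7 and Dlx5 lie above 7 in each table.

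Among all tested genes, Sp7 and Dlx5 were each other's closest match in profile. Likeness was measured as the root mean square distance between log2 CPM profiles over the 9 libraries after each gene's mean was subtracted, and it describes these libraries, which share their group structure. The distance between Sp7 and Dlx5 was 0.310, against 1.99 between Sp7 and Runx2 and 2.97 between Dlx5 and Atf4. Ngef, a guanine nucleotide exchange factor, came next for both, at 0.457 from Sp7 and 0.392 from Dlx5. It was 7.86 on the log2 scale higher in iOB than in fibroblasts and 4.01 higher in calvarial-OB than in fibroblasts. Colq, which encodes the collagen tail of acetylcholinesterase, followed at 0.507 and 0.521. Prl2c2 and Insc completed the 5 nearest to Sp7, and Gpr116 and Ccl6 the 5 nearest to Dlx5, at 0.720 to 0.791. The genes nearest to Runx2 were Slc22a15 (0.167), 4930523C07Rik, Atp6v0e2, Xaf1 and H2-DMb2 (0.232). Those nearest to Atf4 were Cpe (0.0959), Klhl15, Ndfip1, Osgepl1 and Tctn3 (0.121), whose group means, like those of Atf4, lay close together. With Pearson correlation in place of the distance, 1 of the 5 genes was shared for Runx2, 1 for Sp7, 2 for Dlx5 and 2 for Atf4.

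Dlx6, a homeodomain gene that forms a pair with Dlx5 on the chromosome, differed from it between iOB and calvarial-OB. Fibroblast libraries held 0 Dlx6 reads. Calvarial-OB held 47, 25 and 62 reads, and iOB held 6, 2 and 1. Dlx6 reads came to 37.6%, 18.5% and 29.8% of the Dlx5 reads in the calvarial-OB libraries, and to 0.492%, 0.109% and 0.0727% in the iOB libraries. All iOB libraries lay below all calvarial-OB libraries for Dlx6 and above them for Dlx5. Dlx6 was lower in iOB than in calvarial-OB by edgeR (log2 fold change -3.29 ± 0.53, adjusted p = 6.3e-04, and -4.31 without iOB replicate 1), the opposite direction to Dlx5. The log2 ratio of Dlx6 to Dlx5 was -8.97 ± 1.24 (SD, n = 3) in iOB and -1.85 ± 0.51 in calvarial-OB, a 139-fold difference (-7.12 in log2 ratio, or -7.83 without iOB replicate 1, two-sided exact permutation p = 0.1, the smallest possible). This ratio was chosen after the values had been seen.

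Against a floor of 3 reads over the fibroblast group, Dlx6 was at least 41.8-fold higher in calvarial-OB and at least 4.16-fold higher in iOB. The floor covers counting error only. The bound for iOB was 2.00 without iOB replicate 1, and 2.67 and 2.47 without fibroblast replicates 1 and 3, and edgeR's call for iOB against fibroblasts did not hold without iOB replicate 1 (adjusted p = 0.059). The bound for calvarial-OB was 26.9 and 24.8 without fibroblast replicates 1 and 3. The antisense gene Dlx6as2 had 0, 1 and 1 reads in the fibroblast, calvarial-OB and iOB groups. In the authors' deposited table for iOB GFP+, Dlx6 had a log2 fold change of 4.68 ± 0.84 (adjusted p = 1.6e-07), against 2.06 ± 0.72 in the authors' deposited table for iOB. The value for iOB is moderated towards 0. By edgeR it was 5.01 ± 1.41, or 4.04 without iOB replicate 1, an estimate from 9 iOB reads against 0 in fibroblasts. The difference between sorted and unsorted iOB was not tested.

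**Figure D4:**
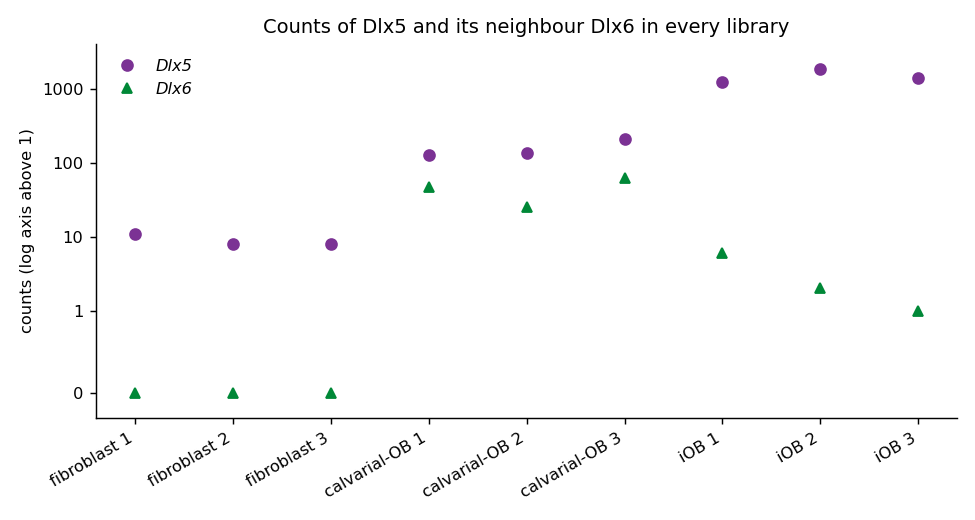
Counts of Dlx5 and Dlx6 in each of the 9 libraries (x axis: group and replicate; y axis: counts, linear from 0 to 1 and log above). Dlx6 reaches 25 to 62 counts beside 125 to 208 of Dlx5 in calvarial-OB, but 1 to 6 beside 1220 to 1830 in iOB.

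Dlx3 and Dlx1, further homeodomain genes of the family, were also higher in calvarial-OB than in fibroblasts. Of 6 tested Dlx and Msx genes other than Dlx5, 3 were called higher in iOB than in fibroblasts and 4 in calvarial-OB, with none lower, and 1 was higher and 4 lower in iOB than in calvarial-OB. Without iOB replicate 1 the first count was 1, and without iOB replicate 3 the number higher in iOB than in calvarial-OB was 0. Dlx3, a regulator of bone and skin appendages, stood at 0.382 ± 0.172 CPM (SD, n = 3) in fibroblasts, 14.7 ± 5.05 in calvarial-OB and 5.57 ± 1.86 in iOB. Its log2 fold change was 3.75 ± 0.45 for iOB and 5.14 ± 0.41 for calvarial-OB against fibroblasts (adjusted p = 3.6e-05 and 8.1e-07 by edgeR). Dlx3 and Dlx6 were thus both lower in iOB than in calvarial-OB, Dlx3 by -1.39 ± 0.29 (adjusted p = 0.0021), where Dlx5 was higher. Dlx1 rose in calvarial-OB (3.49 ± 0.51 against fibroblasts, and 4.36 without fibroblast replicate 1) and had 17 reads in the iOB group. Its log2 fold change in iOB against fibroblasts was 1.93 ± 0.64, or 2.79 without fibroblast replicate 1, and the call did not hold without iOB replicate 1 or 3 or fibroblast replicate 2 or 3 (the highest adjusted p was 0.087). Dlx1 was also lower in iOB than in calvarial-OB (-1.56 ± 0.43, adjusted p = 0.010), a call that did not hold without iOB replicate 2 (adjusted p = 0.060). Dlx2 was not called in any comparison, and Dlx4 had too few reads to be tested.

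Within the Sp family, Sp7 had the largest change in both comparisons with fibroblasts. Sp6, a close relative of Sp7 known from tooth development, was the one other member called higher in iOB than in fibroblasts (4.12 ± 1.05 against 1.21 ± 0.18 CPM, log2 fold change 1.75 ± 0.37, adjusted p = 0.0022 by edgeR). In calvarial-OB it stood at 0.391 ± 0.299 CPM, lower than in fibroblasts by -1.73 ± 0.50 (adjusted p = 0.011), a call that did not hold without calvarial-OB replicate 3 (adjusted p = 0.058), and the value was -2.42 without replicate 2. Sp7 and Sp6 thus had opposite directions in calvarial-OB against fibroblasts and the same direction in iOB. Sp6 was higher in iOB than in calvarial-OB by 3.48 ± 0.44 (adjusted p = 5.9e-05), or 4.21 without calvarial-OB replicate 2. The broadly expressed Sp1, which is also the gene beside Sp7, was 0.60 lower on the log2 scale in calvarial-OB than in fibroblasts (-0.60 ± 0.10, adjusted p = 4.2e-04). Sp2, Sp3 and Sp4 were not called in any comparison, and Sp9 was too low to be tested.

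Of the other Runx genes, Runx1 was lower and Runx3 higher in both osteoblast groups than in fibroblasts. Runx1, best known from blood formation, fell from 148 ± 4.36 CPM (SD, n = 3) in fibroblasts to 93.9 in calvarial-OB and 59.9 ± 9.64 in iOB (log2 fold change in iOB -1.30 ± 0.12, adjusted p = 4.9e-06 by edgeR, and -0.65 ± 0.12 in calvarial-OB). Runx3 rose by 1.41 ± 0.20 in each group against fibroblasts (adjusted p = 1.6e-04 in iOB and 9.3e-05 in calvarial-OB). Both are also expressed in blood-lineage cells, whose macrophage markers differed between these groups as given above.

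Of 26 tested genes of a list of Runx2 paralogues, partners and regulators, which includes Runx1 and Runx3, 9 were called higher and 6 lower in iOB than in fibroblasts, 7 higher and 12 lower in calvarial-OB than in fibroblasts, and 10 higher and 6 lower in iOB than in calvarial-OB. Their median log2 fold change between iOB and fibroblasts was -0.04, the same as for all tested genes to 2 decimals. Of all tested genes, 22.7% were called higher and 20.6% lower in the first of these comparisons. The shares were 28.4% and 27.4% in the second and 24.7% and 24.1% in the third. Zfp521, a zinc-finger antagonist of Runx2, was 1.03 lower in iOB than in fibroblasts on the log2 scale (-1.03 ± 0.12, adjusted p = 2.3e-05 by edgeR). In calvarial-OB against fibroblasts the smallest adjusted p belonged to Hdac4, a deacetylase that represses Runx2 (-1.96 ± 0.15), then Zfp423 (2.62 ± 0.21), Twist2, a Runx2 inhibitor (-2.48 ± 0.21), and Yap1 (-0.95 ± 0.09). Smurf2, a ubiquitin ligase of the pathway, was 1.07 ± 0.11 higher in iOB than in calvarial-OB. Without iOB replicate 3 the count of 10 higher in iOB than in calvarial-OB was 6.

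By gene order in GRCm38, Clic5, a chloride channel gene, lies next to Runx2, and it was higher in iOB than in fibroblasts (11.9 ± 4.97 against 0.595 ± 0.270 CPM, log2 fold change 4.21 ± 0.40, adjusted p = 6.7e-06 by edgeR) and than in calvarial-OB (2.43 ± 0.34, adjusted p = 1.2e-04). Enpp4, the gene beyond Clic5, was 0.79 ± 0.21 higher in iOB than in fibroblasts on the log2 scale (adjusted p = 0.0099) and 1.44 ± 0.22 higher than in calvarial-OB (adjusted p = 2.3e-04). In calvarial-OB against fibroblasts Enpp4 stood at -0.64 ± 0.22 (adjusted p = 0.026), a call that was lost without calvarial-OB replicate 1 or 2 or fibroblast replicate 1 or 3 (highest adjusted p = 0.092). Supt3, on the other side of Runx2, was not called in any comparison. In the authors' deposited table for iOB GFP+, Clic5 stood at 3.85 ± 0.40. Aaas and Myg1 beside Sp7, and Rps19bp1 and Mief1 beside Atf4, were not called between iOB and fibroblasts. All 4 were called in both comparisons with calvarial-OB. Aaas and Mief1 were lower in calvarial-OB than in fibroblasts (-0.54 ± 0.15 and -0.54 ± 0.13) and higher in iOB than in calvarial-OB (0.76 ± 0.15 and 0.35 ± 0.13). Myg1 and Rps19bp1 were higher in calvarial-OB than in fibroblasts (0.38 ± 0.13 and 0.42 ± 0.16) and lower in iOB than in calvarial-OB (-0.52 ± 0.14 and -0.59 ± 0.17). When single libraries were left out, these calls held in each case for Aaas in both comparisons, for Mief1 in calvarial-OB against fibroblasts and for Myg1 in iOB against calvarial-OB. The other calls of Myg1, Rps19bp1 and Mief1 were each lost without at least one library (highest adjusted p from 0.054 to 0.16). Asns, counted below among the targets of Atf4, is the second gene from Dlx5 on the other side from Dlx6. The strand setting of the counting is not given in the sources used here, so reads of overlapping transcripts could be shared between neighbours.

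Textbook target genes of Runx2 and Sp7 were mostly higher in both osteoblast groups than in fibroblasts. Of 30 tested targets 21 were called higher and 5 lower in iOB than in fibroblasts, and 23 higher and 5 lower in calvarial-OB than in fibroblasts. Their median log2 fold change was 2.90 in iOB, or 1.89 when 2 genes without fibroblast reads were set to a bound and 1 was left out, against -0.04 for all tested genes. In calvarial-OB it was 1.96, against 0.02. Bglap and Bglap2, near-identical genes for the bone matrix protein osteocalcin whose reads the counting could divide, stood at 1016 ± 117 and 406 ± 47.3 CPM in iOB (SD, n = 3), at 713 ± 136 and 387 ± 68.1 in calvarial-OB, and at 1.95 ± 1.64 and 1.03 ± 0.519 in fibroblasts. Alpl, the alkaline phosphatase of mineralizing cells, rose by 4.63 ± 0.20 in iOB and 2.86 in calvarial-OB on the log2 scale, and Col11a2, a collagen gene, by 5.23 ± 0.26 and 6.35 ± 0.27. The log2 fold change of Bglap was 8.93 ± 0.39 in iOB and 8.42 ± 0.38 in calvarial-OB (adjusted p = 4.0e-08 and 2.0e-08 by edgeR), and 10.05 and 9.51 without fibroblast replicate 3.

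The Bglap promoter in RefSeq (GRCm38.p6), at chr3:88384417-88384716 on the minus strand, is printed because its osteocalcin product is the classic readout of Runx2. It holds 1 Runx core match, in capitals, 132 bases before the start.
Bglap promoter: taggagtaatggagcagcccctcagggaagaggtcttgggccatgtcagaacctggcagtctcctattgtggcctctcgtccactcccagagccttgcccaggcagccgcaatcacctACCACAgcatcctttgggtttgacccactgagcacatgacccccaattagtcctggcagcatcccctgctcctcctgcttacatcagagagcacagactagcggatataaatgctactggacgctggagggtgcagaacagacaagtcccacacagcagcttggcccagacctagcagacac
Of 31 promoters of the target list, from 24 of its 30 genes, 8 held the core, or 25.8%, beside the 16.8% of all promoters given above.

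Not every listed target rose with the factors. Spp1, the gene for osteopontin, fell by 2.21 ± 0.17 in iOB and by 2.22 ± 0.17 in calvarial-OB on the log2 scale against fibroblasts (2399 ± 267 CPM in fibroblasts, 517 ± 103 in iOB and 516 ± 79.5 in calvarial-OB). Col10a1, a collagen of hypertrophic cartilage, had a log2 fold change of -3.09 in iOB, or -3.94 without iOB replicate 2, and of -3.24 in calvarial-OB. Enpp1, Col5a1 and Mmp13 were the other 3 called lower in both, by 0.37 to 1.42 on the log2 scale. The Mmp13 call did not hold without fibroblast replicate 3, either iOB replicate 2 or 3, or either calvarial-OB replicate 2 or 3 (the highest adjusted p was 0.110). In iOB the Col5a1 call did not hold without iOB replicate 2 or 3 or fibroblast replicate 2 or 3, with RLE scaling or with a replicate block (the highest adjusted p was 0.174), nor the Enpp1 call without fibroblast replicate 3 (adjusted p = 0.078). The count of 5 lower in iOB was 3, 3 and 2 without iOB replicate 2, iOB replicate 3 and fibroblast replicate 3. These 5 genes were singled out after their values had been seen.

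Between iOB and calvarial-OB the targets divided, while Runx2 and Sp7 themselves were higher in iOB. Of the 30, 6 were called higher and 13 lower in iOB than in calvarial-OB, with a median of -0.14 against -0.03 for all tested genes. Ifitm5, a membrane protein of mineralizing osteoblasts, stood at 2.96 ± 0.226 CPM in iOB and 59.8 ± 19.8 in calvarial-OB (log2 fold change -4.32 ± 0.32, adjusted p = 1.3e-06 by edgeR). Panx3, a channel protein of bone and cartilage, stood at 28.3 ± 4.28 and 144 ± 47.5 CPM (-2.35 ± 0.22, adjusted p = 5.8e-06). Notum, a secreted Wnt inhibitor, went the other way (16.6 ± 5.04 against 1.13 ± 0.614 CPM, 3.94 ± 0.38), as did Alpl (1.77 ± 0.18). In the authors' deposited table for iOB GFP+, 26 of the 30 targets were called higher and 1, Col10a1, lower, with Alpl at 5.54 ± 0.17, Col11a2 at 9.52 ± 0.35 and Bglap2 at 10.94 ± 0.44. Spp1 was at 0.47 ± 0.33 (adjusted p = 0.259) in the authors' deposited table for iOB GFP+. The median over these targets in the authors' deposited table was 4.51, against 0.03 for all its genes. All 19 macrophage markers listed in the authors' deposited table for iOB GFP+ had positive log2 fold changes there, from 2.18 (Cd14) to 4.84 (Fcer1g). Of these, 18 carry no p-value in the authors' deposited table, and Fcer1g was called higher (4.84 ± 0.62, adjusted p = 9.6e-14). Their part in the values of the sorted cells was not tested.

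**Figure D5:**
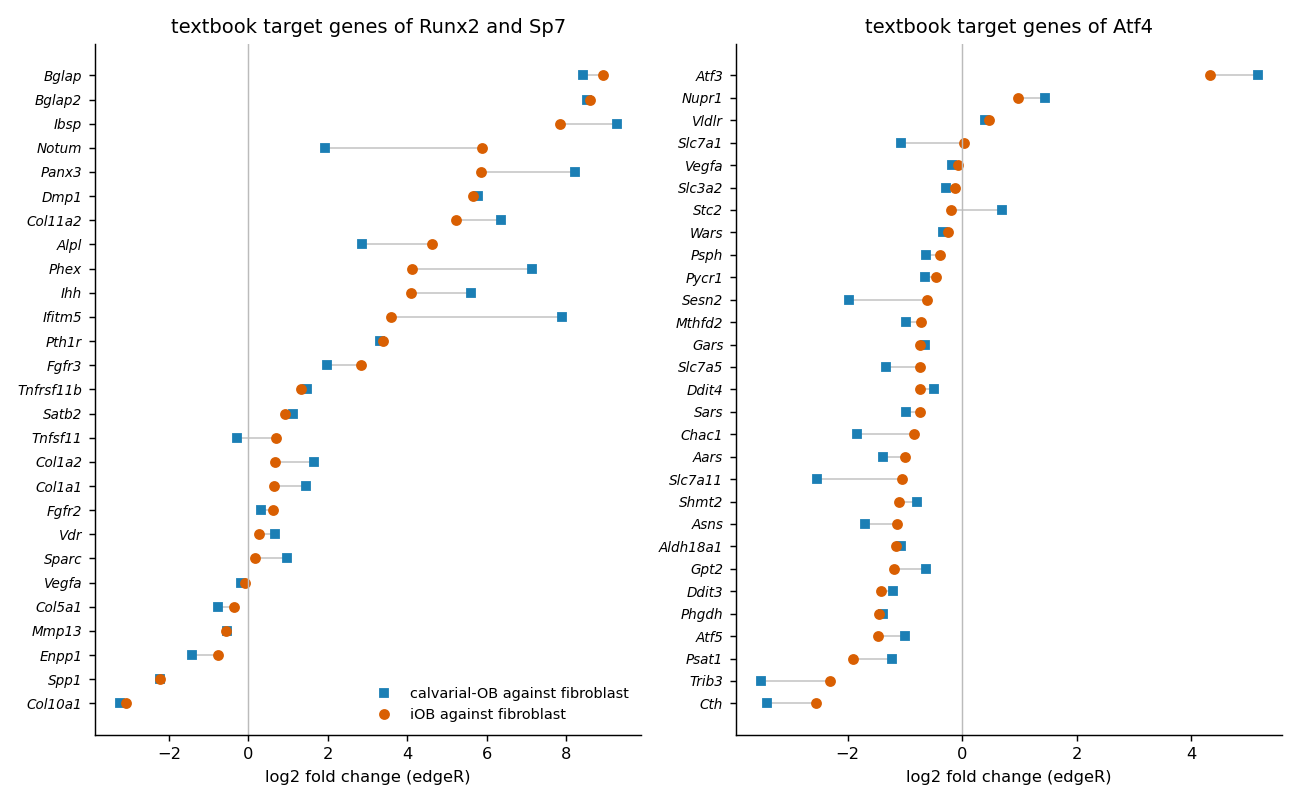
Log2 fold change against fibroblasts (x axis, edgeR) of 27 target genes of Runx2 and Sp7 with reads in all groups (left) and of 29 target genes of Atf4 (right), with circles for iOB and squares for calvarial-OB, ordered by the iOB value. Most genes on the left lie above 0 in both groups, with Spp1 and Col10a1 at the bottom, and most on the right lie below 0, with Atf3 at the top.

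Listed textbook targets of Atf4, chosen mainly from amino acid supply and stress response, were mostly lower in both osteoblast groups than in fibroblasts. The list leaves out Bglap, which is counted above among the targets of Runx2 and Sp7 and was higher in both groups. Of 29 tested targets 3 were called higher and 20 lower in iOB than in fibroblasts, with a median log2 fold change of -0.74. In calvarial-OB 3 were higher and 22 lower, with a median of -0.97. Psat1, an enzyme of serine synthesis, fell from 161 ± 21.2 CPM in fibroblasts to 42.9 ± 3.69 in iOB (-1.91 ± 0.16, adjusted p = 2.2e-06 by edgeR). Cth, for cysteine synthesis, had a log2 fold change of -2.54 ± 0.24 in iOB and -3.40 ± 0.25 in calvarial-OB, and Aldh18a1, for proline synthesis, of -1.16 ± 0.12 in iOB. The stress sensor Sesn2 stood at 69.4 ± 2.82 CPM in fibroblasts, 45.6 ± 1.71 in iOB and 17.7 ± 1.58 in calvarial-OB (-1.98 ± 0.11 in calvarial-OB, adjusted p = 5.2e-08). Trib3, a pseudokinase, was 3.51 lower in calvarial-OB than in fibroblasts (-3.51 ± 0.30).

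Asns, asparagine synthetase, is the standard example of an Atf4 target. It stood at 159 ± 16.2 CPM in fibroblasts, 72.5 ± 8.24 in iOB and 49.4 ± 8.25 in calvarial-OB (SD, n = 3), and each group differed from the others (log2 fold change -1.14 ± 0.14 for iOB and -1.69 ± 0.14 for calvarial-OB against fibroblasts, and 0.56 ± 0.14 for iOB against calvarial-OB, adjusted p = 4.0e-05, 1.1e-06 and 0.0061 by edgeR). Its promoter in RefSeq (GRCm38.p6), chr6:7693160-7693459 on the minus strand, is printed because it holds the amino acid response element that Atf4 is known to bind. The search used the core TGATGNAA, or TTNCATCA on the other strand, and the match, in capitals, begins 23 bases before the start.
Asns promoter: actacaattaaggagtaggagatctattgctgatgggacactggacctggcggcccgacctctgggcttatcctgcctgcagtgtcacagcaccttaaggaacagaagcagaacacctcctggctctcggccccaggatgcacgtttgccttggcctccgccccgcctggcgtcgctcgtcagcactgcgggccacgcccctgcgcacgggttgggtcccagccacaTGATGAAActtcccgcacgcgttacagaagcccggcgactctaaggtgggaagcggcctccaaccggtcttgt
Of 32 promoters from 27 of the 30 listed Atf4 targets, 11 held this core, or 34.4%, beside 3.97% of all promoters. Targets of this kind are in part known through that element, so the share describes the list. The Bglap promoter printed above, which is not in this list, also holds a match. It reads TTACATCA, begins 54 bases before the start and is not in capitals there.

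The 3 Atf4 targets called higher in both osteoblast groups were Atf3, Nupr1 and Vldlr. Atf3, a stress-induced factor of the same protein family, stood at 4.87 ± 0.807 CPM in fibroblasts and 96.6 ± 8.11 in iOB (4.32 ± 0.83, adjusted p = 0.0013 by edgeR). In calvarial-OB it was spread widely, at 172 ± 220 CPM (5.15 ± 0.84, and 3.25 without calvarial-OB replicate 1). Between iOB and calvarial-OB 9 of the 29 targets were called higher and 3 lower, with a median of 0.10 against -0.03 for all tested genes. Sesn2 (1.37 ± 0.11) and Slc7a1, an amino acid transporter (1.10 ± 0.16), were the 2 with the smallest adjusted p among those higher. Without calvarial-OB replicate 3 the number lower was 6. In the authors' deposited table for iOB GFP+, where Atf4 itself was called higher, 12 of 30 targets were called higher and 7 lower, with a median of 0.03, and Asns was at -0.06 ± 0.19 (adjusted p = 0.826). Psat1 (-1.20 ± 0.18) and Trib3 (-1.14 ± 0.17) were lower there too in the authors' deposited table, and Nupr1 was higher (2.72 ± 0.17).

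Among 16 partners and upstream kinases of Atf4, 6 were called higher and 3 lower in iOB than in fibroblasts, 3 higher and 6 lower in calvarial-OB than in fibroblasts, and 3 higher and 1 lower in iOB than in calvarial-OB. Among all tested genes the shares called higher and lower were 22.7% and 20.6%, 28.4% and 27.4%, and 24.7% and 24.1% in the same order. The 3 higher in the last comparison were the kinase genes Eif2ak2 (1.04 ± 0.11, adjusted p = 1.4e-05 by edgeR), Eif2ak3 (0.82 ± 0.11) and Eif2ak1 (0.47 ± 0.11), whose products phosphorylate the initiation factor that raises Atf4 translation. Eif2ak2, which is also induced by interferon, was higher in iOB than in fibroblasts by 0.88 ± 0.11 as well. Without calvarial-OB replicate 1 the counts of the last comparison were 6 higher and 2 lower, without calvarial-OB replicate 3 there were 5 higher, and without iOB replicate 2 or 3 there were 0 lower. Atf5 and Ddit3, partners and targets of Atf4, were lower in iOB (-1.47 ± 0.22 and -1.41 ± 0.26) and in calvarial-OB (-0.99 ± 0.22 and -1.20 ± 0.25) than in fibroblasts.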

How the data were processed

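Poly-A RNA of mouse cells was sequenced, with 15 RNA libraries in 5 groups of 3 per the labels. Per the submitters' processing notes, the tools were DESeq2, Bowtie2, R 3.2.2 and STAR 2.4.2a with build mm9; what each tool made is not given in the sources used here. The authors deposited raw counts per gene symbol for 9 libraries, in which the OB columns were read as calvarial-OB. How reads were counted, on which annotation and with which strand setting is not given in the sources used here. Result tables of the authors compare iOB and iOB GFP+ with fibroblasts. Per the file headers, each gives the p-value (raw and adjusted), the log2 fold change and its error, the test statistic, a score, and the base mean, a signal averaged over libraries after normalization. For iOB, the median ratio of the base mean to the mean normalized count of the 9 libraries was 1, and the log2 values came within a median of 0.000338 of a DESeq2 1.42.0 refit with a fold-change prior, so they are moderated towards 0. Methylation windows, given in mm9 coordinates, and bone chip GFP+ libraries were not analysed here.

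The 9 libraries were fitted together with edgeR 4.0.16 (quasi-likelihood test, TMM, filterByExpr, group as the only term) in R 4.3.3. Adjusted p is Benjamini-Hochberg over 13438 genes, with calls below 0.05. CPM used TMM-scaled library sizes. The SE is the absolute log2 fold change divided by the square root of the F statistic. Ratios used counts plus 0.5 and exact permutation tests. The steps were tested on simulated data. Named genes were the 4 factors, up to 4 genes per list and comparison with the smallest adjusted p, the Runx, Dlx and Sp families, the 5 nearest profiles and the 2 nearest genes on each side. The members and lists were chosen with earlier results of these data known, and other genes are named as stated. Lists were described by counts and medians. Motifs were matched with Python 3.11.15. Alternatives were RLE and upper-quartile scaling, no low-count filter, 2 groups only, DESeq2, a replicate block, omission of the ribosomal precursor Rn45s, and leaving out each library.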

Additional observations from a re-analysis of the deposited data

How the results depend on the processing

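Runx2, Sp7 and Dlx5 kept their direction and call in all 3 comparisons under each of 13 alternatives, with log2 fold changes between iOB and fibroblasts of 2.55 to 2.73, 7.30 to 7.62 and 7.60 to 7.95. Atf4 was not called against fibroblasts in any of them. Its call between iOB and calvarial-OB (0.39) was lost with upper-quartile scaling (0.31, adjusted p = 0.102), with only the 2 groups fitted (0.39, adjusted p = 0.076) and with a replicate block (0.38, adjusted p = 0.069), and ranged from 0.18 to 0.49 when single libraries were left out; the cause was not tested. The log2 ratio of Dlx5 to Sp7 between calvarial-OB and fibroblasts (0.01) changed sign with an offset of 1 (-0.045) and ranged from -0.18 to 0.23 when single libraries were left out.

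Deviations of same-numbered libraries from their group means correlated at -0.15 to 0.15. These correlations cannot decide whether such libraries shared a culture or animal. The replicate block changed the call of no factor other than Atf4 and left 5614, 7364 and 6303 genes called, against 5820, 7494 and 6561. Upper-quartile scaling shifted the median of all genes from 0.02 to 0.10 between calvarial-OB and fibroblasts and from -0.03 to -0.11 between iOB and calvarial-OB. With only the 2 groups fitted, 1 Dlx or Msx gene and 2 Sp genes were called higher in iOB than in fibroblasts and 1 Sp gene lower in calvarial-OB. Depth limits Dlx5 in fibroblasts (8 to 11 reads) and Dlx6 in iOB (1 to 6 reads).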
